A study of Mus musculus with 12 samples.

Results

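AGO2-bound RNA of mouse tibialis anterior was read here at 10 genes of B cells and of antigen presentation: Igkc, Ighm, Jchain, Cd79a, Cd79b, Cd74, H2-Aa, H2-Ab1, H2-Eb1 and H2-DMb2. A peak belonged to a gene if it overlapped the gene by at least 1 nt on the same strand, with no threshold on its size. The 4 total immunoprecipitated libraries together listed 713343 peaks, of which 141 lay in the 10 genes, out of 17902 genes with a listed peak. The genes were chosen with measured values of these same lists in view, so what follows describes them and tests nothing. An exact permutation test of 2 WT against 2 KO libraries could not go below a two-sided p of 0.333.

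The assay was chimeric eCLIP, in which AGO2, the protein that carries microRNAs, is cross-linked to RNA, immunoprecipitated and sequenced. Muscle came from mice aged 6 months, male by the study's methods. WT mice were labelled wildtype of strain C57BL/6, and KO mice miR-486-/- of strain FVB N/J, a CRISPR deletion of the mir-486 hairpin present in every cell. Libraries fell into set 1 and set 2, each with 1 WT and 1 KO library and an input for each, and libraries enriched for miR-486 were not analysed here. The methods describe repeated backcrossing to C57BL/6J, which was not reconciled with the labels. Genotype and labelled strain therefore cannot be told apart, and antibody and class II genes are among those that vary most between mouse strains. The methods name more muscles per genotype than there are libraries, and work in duplicate, but neither source says how these map onto the 2 libraries per genotype, or whether a library holds 1 mouse or several. An SD over the sets need not reflect differences between mice. The hairpin itself had 2 and 4 listed peaks in the WT libraries of set 1 and set 2 and 0 in both KO libraries, as labelled.

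B cells carry an antibody on their surface, built of heavy chains (Ighm encodes the constant part of the IgM heavy chain) and light chains (Igkc encodes the constant part of the kappa chain). Cd79a and Cd79b pass the signal of that receptor into the cell, and Jchain links antibody units into polymers in plasma cells, which secrete them. MHC class II proteins show peptides to helper T cells. H2-Aa and H2-Ab1 encode the alpha and beta chains of the I-A molecule, H2-Eb1 the beta chain of I-E, Cd74 the invariant chain that guards the empty molecule, and H2-DMb2 a beta chain of the DM complex that exchanges its peptide. B cells, dendritic cells and many macrophages make class II, and muscle fibres make little of any of these. In bulk muscle, fewer cells of a type and less RNA per cell cannot be told apart.

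Listed peaks lay over the start codon of every protein-coding member but Cd79b. Those stretches are printed first, except for Cd74, with the start codon in capitals, 5′ to 3′ on the sense strand of GRCm38. The H2-Aa stretch (chr17:34287746-34287775, minus strand) lay in listed peaks of all 4 libraries, and that of H2-Ab1 (chr17:34263303-34263332, plus strand) in those of 3. The other printed ones lay in peaks of the WT library of set 2 alone.
H2-Aa: gagaccaggATGccgcgcagcagagctctg
H2-Ab1: gccttagagATGgctctgcagatccccagc
H2-Eb1: tcctgcagcATGgtgtggctccccagagtt
H2-DMb2: gagtggaacATGgctgcactctggctgctg
Cd79a: tgggagacgATGccagggggtctagaagcc
Jchain: gaagacaagATGaagacccacctgcttctc
The last 4 stand at chr17:34305945-34305974 (H2-Eb1, plus strand), chr17:34145407-34145436 (H2-DMb2, plus strand), chr7:24897513-24897542 (Cd79a, plus strand) and chr5:88527759-88527788 (Jchain, minus strand).

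For the constant-region genes, the 30 nt at the middle of the stretch shared between libraries are shown. The Igkc peaks of both set 2 libraries shared 41 nt of coding sequence, and the middle of it is at chr6:70726647-70726676 on the plus strand. In Ighm, the longer peaks of the fifth exon, the first of those used for the membrane form of IgM, shared 57 nt in all 4 libraries, with the middle at chr12:113419005-113419034 on the minus strand.
Igkc: ctcacgttgaccaaggacgagtatgaacga
Ighm: gaacctgtggaccactgcctccaccttcat

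All 10 genes were listed in the WT library of set 2, 5 of them in the KO library of that set, and 4 in each library of set 1. The number of member peaks was 22 in WT and 16 in KO of set 1, and 64 in WT and 39 in KO of set 2. The libraries listed very different totals, 92451, 119859, 244814 and 256219 in the same order, so member peaks were also put over 100000 listed peaks. They came to 23.8 in WT and 13.3 in KO of set 1, and to 26.1 in WT and 15.2 in KO of set 2. The WT share was the higher in both sets, with a log2 ratio of WT over KO of 0.83 in set 1 and 0.78 in set 2 (mean 0.81 ± 0.04, SD, n = 2 sets). A higher WT share in both sets was not particular to the members. A list of 20 macrophage genes, read below, gave 100.6 in WT and 71.8 in KO of set 1, and 99.7 and 67.1 in set 2.

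Ighm held 50 of the 141 peaks, at least 9 in each library. Leaving it out, a choice made once its values were seen, the libraries of set 1 kept 9 and 7 peaks and those of set 2 kept 51 and 24, and the log2 share ratio was 0.74 in set 1 and 1.15 in set 2 (mean 0.95 ± 0.29, SD, n = 2 sets). By covered length in place of peaks, for all members with Ighm kept, the mean ratio over the sets was 0.58. Per 100000 covered nt, the members then held 21.4 in WT and 17.0 in KO of set 1, and 29.7 and 16.7 in set 2. By this measure the genotypes differed less in set 1 than in set 2. In set 2, the genes with a listed peak in WT and 0 in KO were 5 of the 10 members (Jchain, Cd79a, Cd79b, H2-Eb1 and H2-DMb2), against 7.42% of the 17110 genes with a peak in that set. No member was listed in KO alone there, against 7.38% of genes. In set 1 none of the 4 listed members was seen in 1 genotype alone, where 11.3% of genes were listed in WT alone and 11.7% in KO alone.

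**Figure D1:**
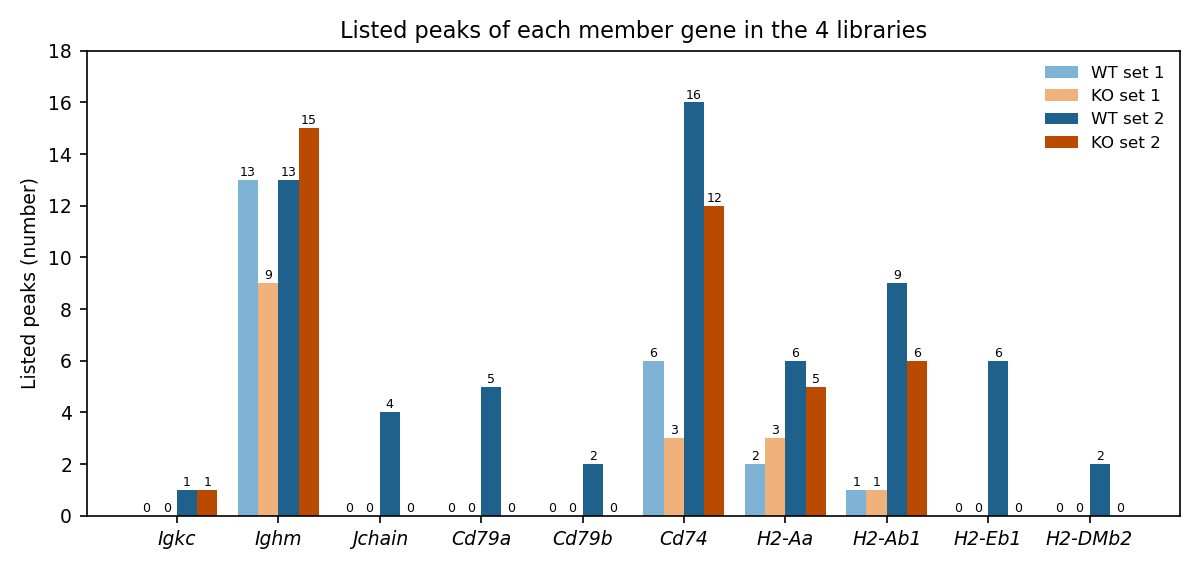
Number of listed peaks (vertical axis) in each member gene (horizontal axis), with a bar and its value for each of the 4 libraries. Ighm had 9 to 15 peaks in every library, Cd74, H2-Aa and H2-Ab1 had peaks in all 4, and Jchain, Cd79a, Cd79b, H2-Eb1 and H2-DMb2 had peaks in the WT library of set 2 alone.

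A pair of values is given for each peak below, both as the authors deposited them on a log2 scale: the fold of the library over its input, and the direct fold between genotypes, WT over KO at WT peaks and KO over WT at KO peaks. A peak past a log2 fold of 3 and a −log10 p of 3 is called enriched in the first and past both thresholds in the second. Enriched over input were 0 of 22 member peaks in WT and 0 of 16 in KO of set 1, against 3.57% and 0.848% of all peaks there. In set 2 they were 4 of 64 in WT, against 1.42%, and 1 of 39 in KO, against 1.23%. The 4 lay in Igkc, Cd79b, H2-Aa and H2-Eb1, and the single KO peak in H2-Aa.

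In the direct lists, the members past both thresholds were 0 of 22 WT-over-KO folds of set 1, against 0.469% of all peaks, and 0 of 16 KO-over-WT folds, against 0.179%. In set 2 they were 4 of 64 WT-over-KO folds, against 0.0192%, and 0 of 39 KO-over-WT folds, against 0.0144%. The 4 peaks, in Igkc, Cd79b, H2-Eb1 and H2-DMb2, were among 47 peaks past both thresholds in that whole list. The −log10 p alone reached 3 at 13 of the 64 WT peaks of set 2, against 0.975% of that list, and at 2 of the 22 of set 1, against 6.03%. Since the members were chosen on these lists, nothing is read from the set 2 shares.

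Igkc was listed only in set 2, by 1 peak in each library. The WT peak, at chr6:70726580-70726697, had a log2 fold over input of 7.19 with a −log10 p of 46.0, the highest fold of any member, and 117 of the 244814 peaks of that library stood higher. The KO peak, at chr6:70726642-70726682, lay wholly inside it and had a log2 fold over input of 1.24. In the direct lists the WT-over-KO log2 fold was 3.93 with a −log10 p of 41.3, the second highest −log10 p of the 47 peaks past both thresholds. The KO-over-WT log2 fold at the KO peak was −4.35, and no peak of that list was lower. Both peaks also overlapped Gm30211, a long noncoding RNA gene on the same strand, so the gene assignment is uncertain.

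Ighm was listed in all 4 libraries, by 13 and 9 peaks in set 1 and by 13 and 15 in set 2. In every library the peaks covered the first 5 of its 6 exons and none lay in the sixth. The fifth exon, whose shared stretch is printed above, had 2, 1, 2 and 2 peaks in WT and KO of set 1 and WT and KO of set 2. The median log2 fold over input was 0.83 in WT and −0.60 in KO of set 1, and −0.15 in WT and −0.53 in KO of set 2. The highest of the 50, in the first exon in WT of set 1, was 2.36.

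The direct folds of Ighm lay on both sides of 0 in every list. In set 2 the WT-over-KO folds ran from −0.28 to 0.42 around a median of −0.01, and the KO-over-WT folds from −0.52 to 0.19 around −0.09. In set 1 the WT-over-KO folds ran from −0.73 to 1.74 around 0.35, and the KO-over-WT folds from −1.73 to 0.50 around −0.32. The widest of these stood in the fifth exon, at 1.53 and 1.74 in WT of set 1 (−log10 p 6.21 and 4.82) and at −1.73 in KO of set 1. In set 2 the same exon gave −0.28 and −0.20 in WT and 0.19 and −0.03 in KO, so the difference at the membrane exon of set 1 was not seen in set 2.

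Jchain had 4 peaks, 1 in each of its 4 exons, all in WT of set 2. Their log2 folds over input ran from 1.47 to 2.47 and their WT-over-KO folds from 1.12 to 2.93, the highest at the exon of the start codon. None reached a direct −log10 p of 3.

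Cd79a, the first of the receptor's signalling pair, had 5 peaks in WT of set 2 and none elsewhere. The peak over its start codon, at chr7:24897500-24897575, had the highest WT-over-KO log2 fold of the 5, 3.44, with a −log10 p of 2.33. The remaining 4 ran from 2.12 to 2.71. Cd79b, its partner, had 2 peaks in the same library. The one in its 3′ UTR, at chr11:106311431-106311611, had a log2 fold over input of 4.33 and a WT-over-KO fold of 3.98 with a −log10 p of 6.92. The other, in the first exon, had a WT-over-KO fold of 2.71.

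The lists hold no counts, but ratios of reads can be recovered in part. The commonest WT-over-KO log2 fold of set 2, 0.12, has the opposite sign in the KO-over-WT list, as equal reads would with the KO library 1.09 times as deep. With that factor taken out, 15 of the 51 WT peaks outside Ighm had a whole-number ratio of WT to KO reads within 0.01, as did 25.8% of all peaks of the list. They were 10, 6, 5 and 4 for 4 of the Cd79a peaks, 7, 5 and 2 for 3 of the Jchain peaks, 17 and 5 for both H2-DMb2 peaks and 13, 5 and 4 for 3 of the H2-Eb1 peaks. The others were 14 for Igkc, 6 for a Cd79b peak and 4 for an H2-Aa peak. A whole ratio does not by itself mean few reads, since those of Igkc and H2-Aa came with a −log10 p of 41.3 and 6.84. At the other whole ratios it was at most 4.36, in H2-DMb2, and in Jchain and Cd79a it ran from 0.36 to 2.33. The ratio of 5 came with the same −log10 p, 0.96, in Jchain, Cd79a, H2-Eb1 and H2-DMb2. The number of reads behind these folds is not given. A gene without a listed KO peak may still have had reads there, below what the caller lists.

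Among the class II genes, Cd74 had 6 and 3 peaks in set 1 and 16 and 12 in set 2. In set 2 every one of the 16 WT-over-KO log2 folds was above 0, from 0.82 to 2.49 (median 1.17), and every one of the 12 KO-over-WT folds was below 0, from −2.61 to −0.97 (median −1.26). The pair of peaks over the first exon had WT-over-KO folds of 2.49 and 2.15 (−log10 p 9.55 and 11.4), and the 4 peaks of the 3′ UTR 1.16, 1.90, 2.26 and 1.04 from 5′ to 3′ (2.52, 10.1, 8.55 and 0.95). Peaks of the coding exons between them ran from 0.82 to 1.24, and the outer 3′ UTR peaks lay within that range. Over input the first of the first-exon peaks reached 2.96 in WT of set 2, below the threshold, and the KO peak there 0.24. One 3′ UTR peak of Cd74 in each set 2 library also overlapped the microRNA gene Mir5107.

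In set 1 the folds of Cd74 divided by position. Its 2 first-exon peaks in WT had WT-over-KO folds of 3.16 and 2.74 (−log10 p 1.79 and 1.24) and no KO peak was listed there. The other 4 WT peaks ran from −0.43 to 0.16. All 3 KO peaks had a KO-over-WT fold of −0.16, as equal reads would with the KO library 1.12 times as deep. First-exon folds of WT over KO were thus above 2 in both sets, and those of the remaining peaks were all above 0 in set 2 alone. Those first-exon folds of set 1 did not reach a −log10 p of 3. Over input the 2 peaks had log2 folds of 1.87 and 1.46, with a −log10 p of 0.54 and 0.35.

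H2-Aa had 2 and 3 peaks in set 1 and 6 and 5 in set 2, and its first exon, with the start codon printed above, was listed in all 4. In set 2 that peak was enriched over input in both genotypes, with a log2 fold of 3.91 in WT and 3.10 in KO. The WT-over-KO fold there was 1.24 (−log10 p 4.02) and the KO-over-WT fold −1.31. In set 1 the first-exon peaks stood near the input, at 0.20 in WT and −0.20 in KO, with direct folds of 0.16 and −0.74. All 6 WT-over-KO folds of set 2 were above 0, from 0.62 to 2.12 (median 1.10), and all 5 KO-over-WT folds below 0, from −1.31 to −0.71 (median −1.16). In set 1 the KO-over-WT folds ran from −0.74 to 1.43, on both sides of 0.

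H2-Ab1, which encodes the partner chain of H2-Aa, had 1 peak in each library of set 1, both in the first exon, and 9 and 6 in set 2. All 9 WT-over-KO folds of set 2 were above 0, from 0.31 to 2.34 (median 0.86), and all 6 KO-over-WT folds below 0, from −1.61 to −0.37 (median −1.26). The set 1 peaks gave −0.26 in WT over KO and −0.16 in KO over WT, the latter again the value of equal reads in that set. Both lay below input, at −0.54 in WT and −0.79 in KO, so no difference between genotypes is read from them. Over input the first-exon peak was the highest of the gene in both set 2 libraries, at 1.47 in WT and 1.82 in KO.

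H2-Eb1 was listed in WT of set 2 alone, with 6 peaks from the first exon to the 3′ UTR. Their WT-over-KO folds ran from 2.12 to 3.82 (median 2.36), the highest over the start codon with a −log10 p of 3.19. The third-exon peak had the highest fold over input, 3.72. H2-DMb2 had 2 peaks in the same library, and the one over its start, at chr17:34145240-34145457, had a WT-over-KO fold of 4.21 (−log10 p 4.36) and a fold over input of 3.56. Its coding sequence is 95.9% identical to that of the neighbouring H2-DMb1, which had no listed peak, so reads could be divided between the copies.

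**Figure D2:**
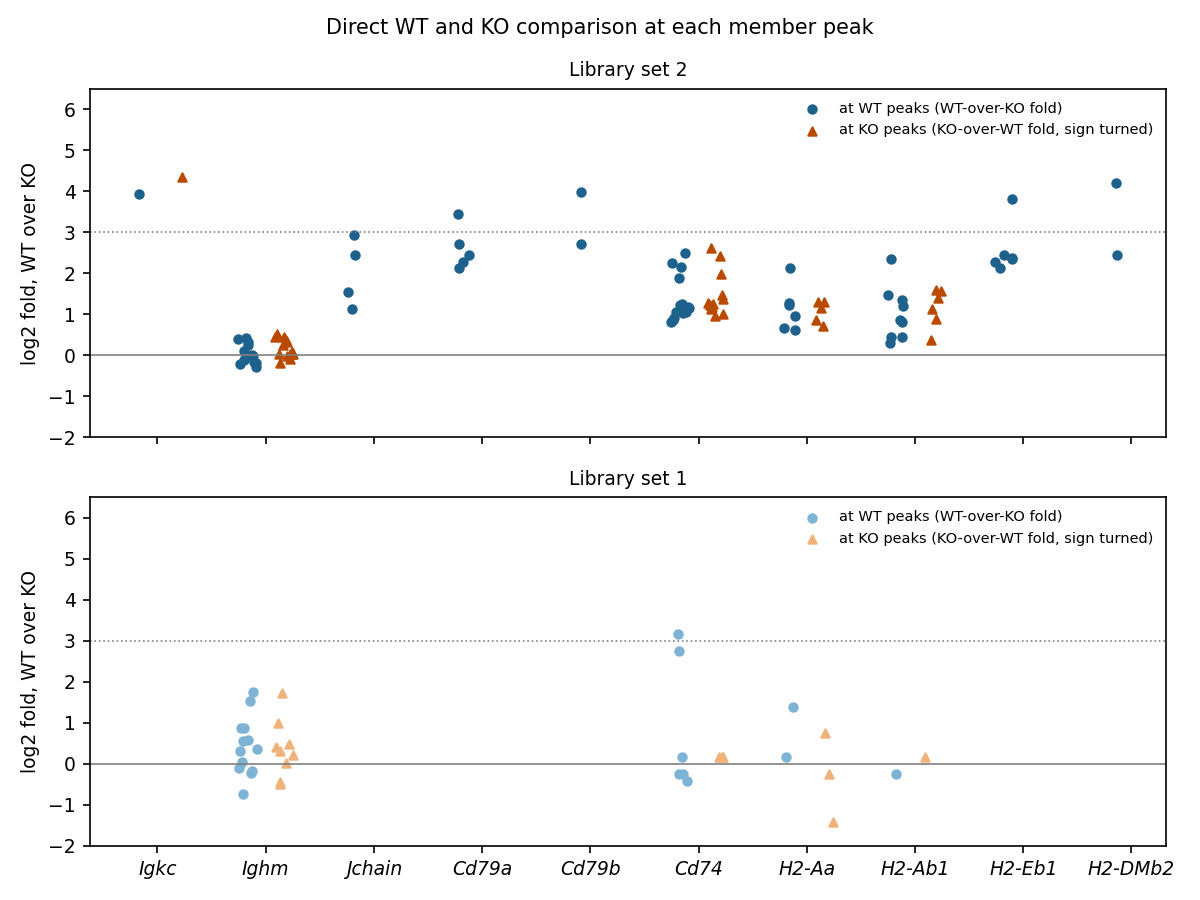
Direct log2 fold of WT over KO (vertical axis) at every listed peak of each member (horizontal axis), set 2 above and set 1 below, with circles for WT peaks and triangles for KO peaks, whose KO-over-WT fold is drawn with its sign turned. The dotted line marks 3. In set 2 all points outside Ighm lie above 0, and in set 1 points of Ighm, Cd74, H2-Aa and H2-Ab1 lie on both sides of 0.

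Over the 9 genes other than Ighm, 51 of 51 WT-over-KO folds of set 2 were above 0 and 24 of 24 KO-over-WT folds below 0, where 67.1% and 62.6% of all folds in those lists were above 0. In set 1, 5 of 9 WT-over-KO folds were above 0, against 80.4% of the list, and 2 of 7 KO-over-WT folds, against 67.5%. The median WT-over-KO fold of all members was 1.20 in set 2, beside 0.30 over all peaks, and 0.24 in set 1, beside 0.74. The median KO-over-WT fold was −0.97 in set 2, beside 0.27, and −0.16 in set 1, beside 0.72. Of genes, 8 of 10 members had a median WT-over-KO fold of at least 1 in set 2, against 17.2% of genes, and 0 of 4 in set 1, against 45.4%. Of the members with 2 or more peaks in both libraries of a set, 3 of 4 in set 2 (Cd74, H2-Aa and H2-Ab1) had every WT-over-KO fold above 0 and every KO-over-WT fold below 0, against 3.65% of genes. In set 1 none did, against 5.51%. Each set 1 list leaned towards the genotype whose peaks it holds, as the medians of 0.74 and 0.72 show. The commonest log2 fold there was 1.74 at WT peaks, a read ratio of 3 with depth taken out, and 1.43 at KO peaks. In set 2 the commonest folds were 0.12 and −0.12. Members below the set 1 backgrounds are therefore not read as depleted, and why those lists lean was not tested. The direction of the set 2 folds is among the values the members were chosen with, and set 1, which lists fewer peaks, held 16 member peaks outside Ighm.

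**Figure D3:**
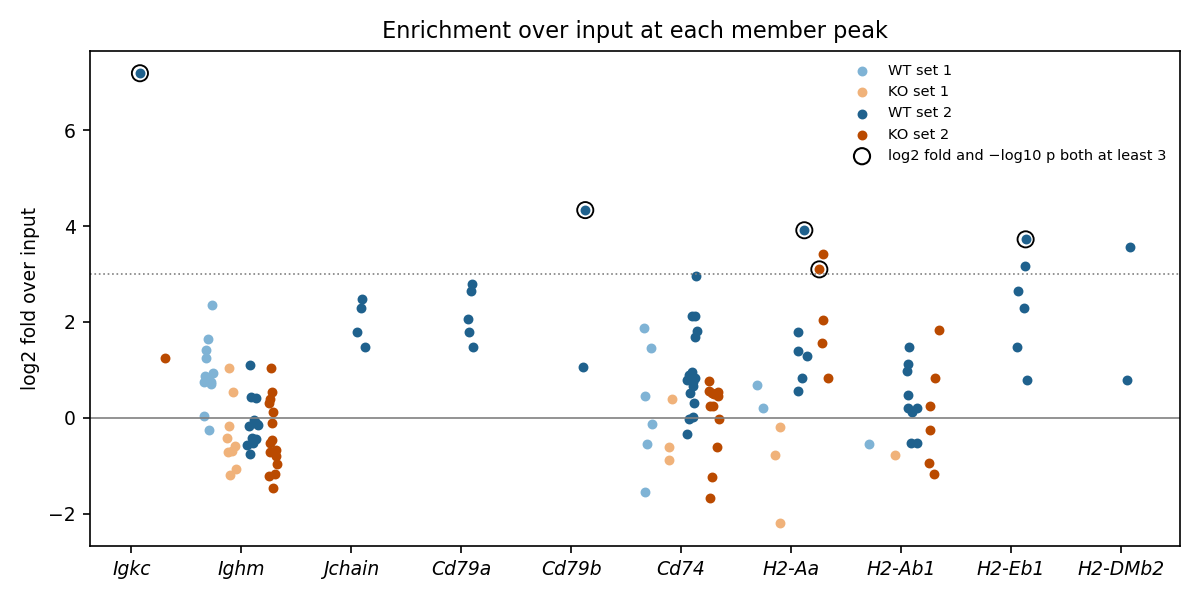
Log2 fold over input (vertical axis) at every listed peak of each member (horizontal axis), coloured by library, with rings around the 5 enriched peaks and a dotted line at 3. Ighm lies on both sides of 0 in every library, with a median of 0.83 in WT set 1 and below 0 in the other 3, and the highest point is the Igkc peak of WT set 2 at 7.19.

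Over input, the median of the members was 0.75 in WT and −0.65 in KO of set 1, beside 0.68 and 0.38 for all peaks, and 0.92 in WT and 0.24 in KO of set 2, beside 0.47 and 0.45. The order of the members in WT of set 2, by median, put Igkc highest at 7.19, then Cd79b at 2.70, H2-Eb1 at 2.46, H2-DMb2 at 2.18, Cd79a at 2.06 and Jchain at 2.04. Below them stood H2-Aa at 1.34, Cd74 at 0.81, H2-Ab1 at 0.21 and Ighm at −0.15. Below Igkc each gene's range of peaks overlapped that of its neighbour in this order. Genes further apart could separate: all peaks of Jchain and Cd79a, from 1.47 up, lay above all of Ighm, whose highest was 1.09. Their −log10 p over input was low, however, from 0.18 to 1.04 in Jchain and from 0.18 to 1.48 in Cd79a. A Cd74 peak reached 7.88, so the order by median fold is not an order of how well enrichment is supported.

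All 141 member peaks touched an annotated exon, and none lay wholly in an intron. Among all peaks within genes, 78.3% touched an exon in WT and 60.1% in KO of set 1, and 58.0% and 56.6% in set 2. By the midpoint, 120 of the 141 lay in coding sequence, 18 in 3′ UTRs and 3 in 5′ UTRs. Where a member had 2 or more peaks, the 5′-most was often the one with the highest fold over input: in 2 of 3 members in WT and 3 of 3 in KO of set 1, against 27.7% and 28.8% of genes whose peaks all lay in exons, and in 5 of 9 in WT and 2 of 4 in KO of set 2, against 22.2% and 23%. This comparison was chosen after the values were seen.

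**Figure D4:**
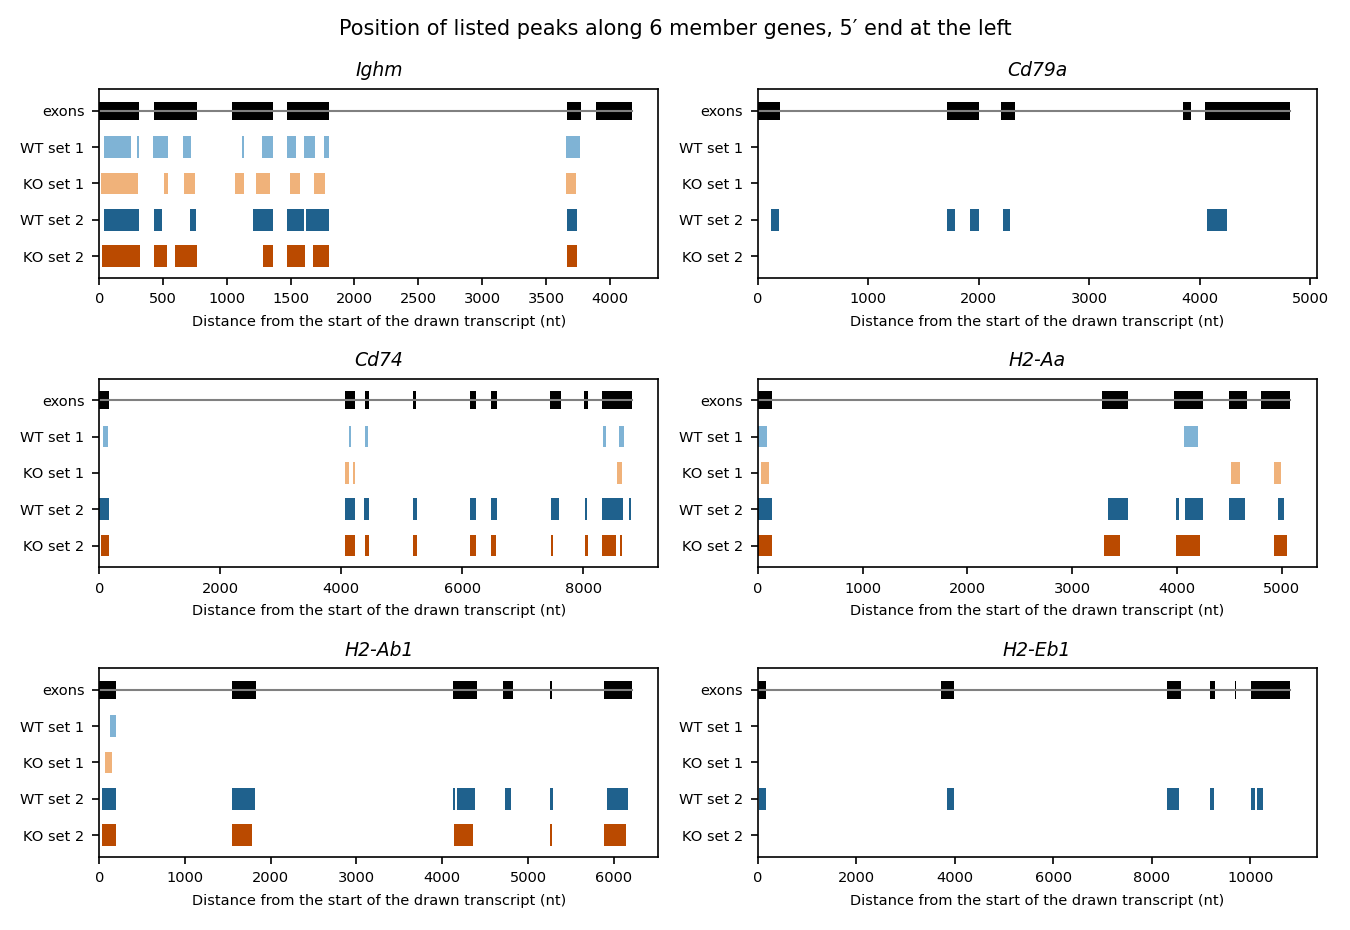
Listed peaks of the 4 libraries (coloured bars, 1 row a library) under the exons of 1 coding transcript (black) of 6 members, against the distance in nt from the start of that transcript. The peaks sit on exons, Ighm has peaks over the same 5 exons in all libraries, and Cd79a and H2-Eb1 have them in WT set 2 alone.

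Overlap between libraries is given beside the same share over all listed peaks. Outside Ighm, all 9 WT peaks of set 1 overlapped a peak of each set 2 library, where 69.5% and 70.3% of all peaks did so for WT and KO, and 4 of the 9 overlapped a KO peak of set 1, where 47.4% did. Of the 7 KO peaks of set 1, 7 overlapped a WT and 6 a KO peak of set 2 (53.7% and 54.1% of all), and 4 a WT peak of set 1 (36.7%). Of the 51 WT peaks of set 2, 27 overlapped a KO peak of that set (54%), 12 a WT peak of set 1 (29.3%) and 7 a KO peak of set 1 (29.1%). Of the 24 KO peaks of set 2, 24 overlapped a WT peak of that set (51.8%), 9 a WT peak of set 1 (28.6%) and 5 a KO peak of set 1 (28.3%). In Ighm, all 13 WT peaks of set 2 overlapped a KO peak of that set. With an overlap of 50% of both peaks, 25 in place of 38 of all 39 KO peaks of set 2 matched a WT peak.

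Matches to microRNA seeds, bases 2 to 8 of the mature microRNA, were searched in the sense strand of the peaks for 7 microRNAs of muscle and lymphocytes found in RefSeq. Those of miR-29a-3p and miR-181a-5p are shown with the seed in capitals, since their matches in Ighm and H2-Ab1 recurred in 3 libraries.
miR-29a-3p: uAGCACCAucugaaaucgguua
miR-181a-5p: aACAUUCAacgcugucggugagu
The word for miR-181a-5p, TGAATGT, was in 7 of the 141 member peaks, or 4.96%, and in 0.928% of all listed peaks. It stood in the second exon of Ighm (chr12:113422022-113422051, minus strand) in 3 libraries, in the 3′ UTR of H2-Ab1 (chr17:34269142-34269171, plus strand) in both libraries of set 2, and in the 3′ UTR of Cd74 in 2 libraries. The word for miR-29a-3p, TGGTGCT, was in 3 peaks, or 2.13%, beside 1.66% of all. These were first-exon peaks of H2-Ab1 in 3 libraries, which hold it at 2 places 9 nt apart. Below, the words are in capitals within 30 nt.
Ighm: ctggctgaaccTGAATGTgtacacctgccg
H2-Ab1 3′ UTR: actgtaagaccTGAATGTctctgctccgaa
H2-Ab1 first exon: ggctgctgtggTGGTGCTgatggtgctgag
The first-exon stretch is at chr17:34263344-34263373 on the plus strand. The word for miR-16-5p, TGCTGCT, was in 3 member peaks, or 2.13%, beside 2.42% of all peaks, in H2-Aa in both libraries of set 2 and in H2-DMb2 in WT of set 2, and those for let-7a-5p, miR-30a-5p, miR-155-5p and miR-142a-3p were in none, where they were in 1.23%, 0.943%, 0.329% and 0.298% of all. Peaks of a gene in several libraries repeat the same place, so the 7 peaks stand for 3 places. miR-486a-5p, miR-1a-3p, miR-133a-3p and miR-150-5p were not searched.

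Other genes of these cells were read from written lists. Of 24 other B cell genes, 3 and 5 were listed in WT and KO of set 1 and 13 and 5 in set 2. Ebf1, a transcription factor of early B cells that is also made in other tissues, held most of the peaks, and 196 of its 210 in KO of set 2 lay outside its exons. Without it the list had 3 and 8 peaks in set 1 and 34 and 4 in set 2. Of its WT-over-KO folds of set 2, 33 of 33 were above 0 (median 1.71), against 67.1% of all peaks. Of its KO-over-WT folds, 6 of 8 were above 0 in set 1, near the 67.5% of all peaks there. In set 2 it was 1 of 4, against 62.6%. Of the 24 genes, 14 had a listed peak in any library, and Ighd, Fcmr, Cr2 and Pou2af1 were among those with none. Cd22, an inhibitory co-receptor, had 6 peaks, all in WT of set 2, with a median WT-over-KO fold of 2.63. Blnk, an adaptor below the receptor, had 5 WT peaks there (0.71) and 1 KO peak, but in set 1 had 2 peaks in KO (KO-over-WT median 1.43) and none in WT. In set 2 Blk, a kinase of the receptor, had 3 WT peaks (1.71) and none in KO. Outside the rule for named genes, Ms4a1, which encodes CD20, had 5 peaks, all in WT of set 2 (2.12), and Pax5, a factor that fixes B cell identity, was listed in KO alone, by 2 peaks in set 1 (KO-over-WT median 2.16) and 1 in set 2 (−0.12). Among 11 plasma cell genes, Ighg1, an IgG constant region, had 3 WT and 2 KO peaks in set 2 with median direct folds of 2.93 and −1.77. Sdc1, a surface proteoglycan of plasma cells, had 5 WT and 2 KO peaks there (1.12 and −0.28), while Prdm1, a factor of plasma cells, had 4 WT and 5 KO peaks (0.12 and 0.88). Xbp1, a factor of secretory cells in general, had 6, 5, 6 and 7 peaks with a WT-over-KO median of −0.13 in set 2.

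The 14 other class II pathway genes of the annotation had 15 and 16 peaks in set 1 and 67 and 38 in set 2. In WT of set 2, 7 of the 10 listed genes had a median WT-over-KO fold of at least 1. March1, a ubiquitin ligase that takes class II off the surface, had 8 WT and 10 KO peaks, with a median WT-over-KO fold of 1.58 and a KO-over-WT fold of 0.80. Rfx5 and Rfxank, subunits of the factor that binds class II promoters, had WT-over-KO medians of 0.12 and 0.12 there, and Ifi30, a reductase of the pathway, 0.71. Ctss, the protease that cuts the invariant chain, named after its values were seen, had 10 WT and 5 KO peaks and a WT-over-KO median of 1.60.

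Markers of other cells moved with these results in part. The 8 general leukocyte genes had 6 and 6 peaks in set 1. In set 2 they had 82 in WT and 38 in KO, with a median WT-over-KO fold of 1.48 and a KO-over-WT fold of −0.86. The 20 macrophage genes had 93 and 86, then 244 and 172 peaks, with medians of 0.86 and −0.52 in set 2, as in Mrc1 (1.12 and −0.83) and Csf1r (1.04 and −0.86), while Ctsb gave 0.38 and −0.29 and Cx3cr1 0.34 and 0.29. The 10 dendritic cell genes had 47 and 42 peaks in set 2, with medians of 0.71 and 0.32. Most of the peaks lay in Zbtb46 (32 and 35), which gave 0.61 and 0.39. Clec10a, with 10 and 6, gave 1.06 and −0.60. Of the 6 genes listed in WT there, 4 had a WT-over-KO median of at least 1, each but Clec10a on 1 or 2 peaks. Of 20 T cell genes, 8 had a listed peak in any library, and the list had 9, 11, 11 and 11 peaks in the 4 libraries, with Cd3d, Cd3e, Cd3g and Trac at 0 in all. The 10 class I genes had 73 and 76 peaks in set 2 with a median WT-over-KO fold of 0.00. Of them H2-D1 and B2m, a heavy and the light chain of class I, gave −0.42 and −0.08, Tap2 and Tapbp, of its peptide loading, 0.12 and 0.20, and 3 genes with 2 to 5 WT peaks had a median of at least 1. The 10 muscle genes had 2686 and 2691 peaks with medians of 0.03 and −0.03. Of the leukocyte genes, Cd53 had 17 WT and 3 KO peaks in set 2 (medians 1.71 and −1.44). Laptm5 gave 0.84 and −1.12 there, Lcp1 1.71 and −0.12, and Ptprc 2.12 and −0.12. The −0.12 is the value of equal reads in that set. In set 1 the macrophage median was 1.48 in WT over KO and 0.43 in KO over WT. How far the number of leukocytes in each muscle enters the member folds was not tested.

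**Figure D5:**
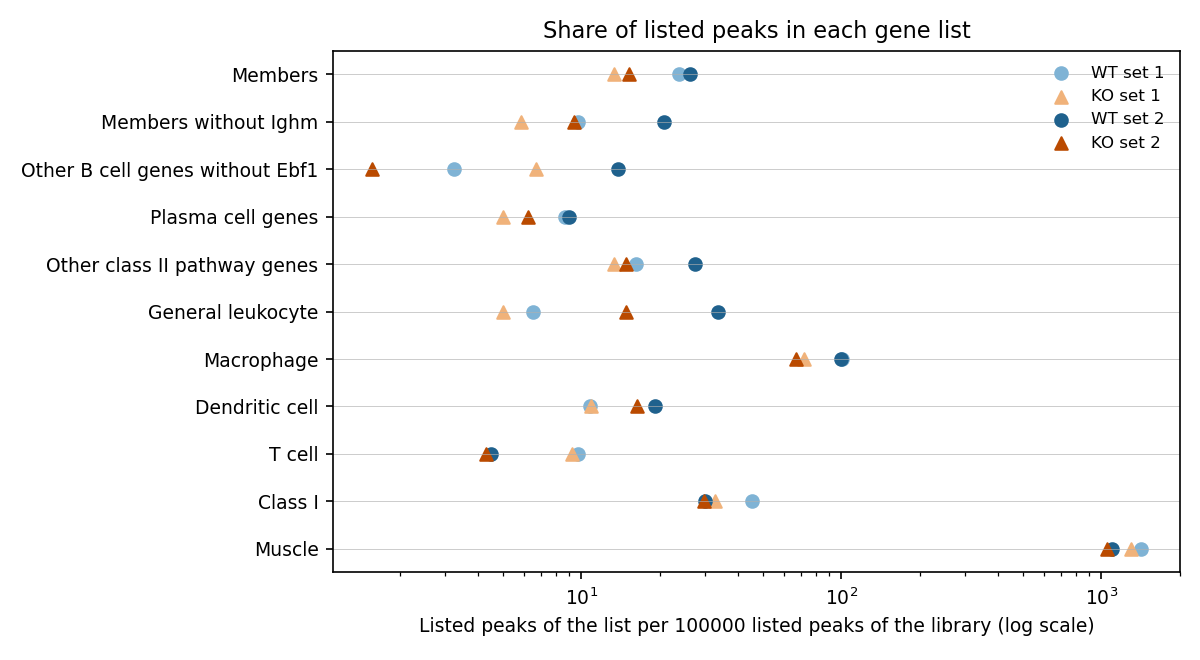
Listed peaks of each gene list per 100000 listed peaks of the library (horizontal log axis), with circles for WT, triangles for KO, and pale and dark colours for set 1 and set 2. Members stand higher in WT than KO in both sets (23.8 and 13.3, then 26.1 and 15.2). So do macrophage genes (100.6 and 71.8, then 99.7 and 67.1). Plasma cell, other class II pathway, general leukocyte, T cell, class I and muscle genes are also higher in WT in both sets, some only slightly. Dendritic cell genes are level in set 1 (10.8 and 10.8) and higher in WT in set 2. Other B cell genes without Ebf1 are higher in KO in set 1 and in WT in set 2.

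The genes whose counts over the 4 libraries, put per 100000 listed peaks with 0.5 added, centred and taken as log2, were nearest to the members' own were ranked among 10823 genes with at least 10 listed peaks. Among the nearest by distance were Sipa1 (0.08), Cnpy2 and Tmem41b (0.12 each), Shkbp1 (0.12), Gm49027 (0.12), Tie1 (0.13) and Hprt (0.15). Their median WT-over-KO folds in set 2 ran from −0.02 for Cnpy2 to 0.71 for Tmem41b and Shkbp1, all under the 1.20 of the members. Nearest to the members without Ighm were Fat3 (0.07), Rusc1 (0.21), Neat1 (0.24), Slc25a35 (0.25), Col13a1 (0.26), N4bp2 (0.27), Sgpl1 and Pop1 (0.31 each), with WT-over-KO medians in set 2 from 0.39 for Slc25a35 to 1.12 for Fat3 and Pop1 and 1.57 for Neat1. Neat1, a nuclear long noncoding RNA, had 159 and 94 peaks in set 2 and a KO-over-WT median of −1.33, beside 1.46 and −1.26 for the members without Ighm.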

How the data were processed

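Chimeric eCLIP peak lists of 4 total immunoprecipitated libraries were analysed, 1 WT and 1 KO in each of 2 sets. Per the submitters' processing notes and the methods, the authors trimmed adapters (cutadapt), aligned reads with STAR to GRCm38 and called peaks per library with CLIPper. The authors deposited for each peak a log2 fold between 2 libraries and the −log10 of a p-value, with 400 the highest value written. There are 4 lists over input and 4 direct lists. No read counts are given in the lists used, so depth per library is unknown and listed peaks (92451 to 256219) stand in for it. A fold between genotypes is not corrected for input.

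Peaks were assigned to GENCODE M21 genes (the labels name a later release on the same assembly), and all 21 chromosomes of each list lay within the reference. Coordinates are 1-based. Regions were read at the midpoint, CDS before UTR before intron. Sequences are from the RefSeq GRCm38 genome and RefSeq mature microRNAs, and 7 of 11 listed microRNAs were matched. Counting was tested on simulated peaks. The 10 members and the gene lists were chosen with earlier results of these data known. Named were all members, at most 4 genes a list by number of listed peaks and the genes of nearest profile, 1 of which is not reported here, while genes at 0, Ms4a1, Pax5 and Ctss were named after their values were seen. No test was made. Alternatives covered the overlap, exons, merging, covered length, thresholds, other genes, Ighm, H2-DMb2 and each set alone. Tools were Python 3.11.15, numpy 2.4.6, pandas 2.3.3, Biopython 1.88 and matplotlib 3.10.9.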

Additional observations from a re-analysis of the deposited data

How the results depend on the processing

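No paired test was made: the values are counts and the authors' folds of single libraries. The share ratio was already paired, taken between WT and KO within each set and described over 2 sets. Of 185 alternative values, 138 stayed with the main value. Without Ighm, listed member peaks were 9 in WT set 1, 7 in KO set 1 and 24 in KO set 2, and the log2 share ratio rose to 0.95. By covered length, with Ighm kept, the ratio was 0.58 and the mean KO share 16.9 per 100000. Each set alone gave a ratio of 0.78 to 0.83, WT shares of 23.8 to 26.1 and KO shares of 13.3 to 15.2. Enriched peaks at a log2 fold of 1 were 2 in WT set 1 and 10 in WT set 2, and at 4 they were 2 in WT set 2 and 0 in KO set 2. KO set 2 had 2 at a −log10 p of 2 and 0 at 5. Each set alone gave 0 to 4 enriched WT peaks and 0 to 1 KO peaks. Direct WT-over-KO peaks at a fold of 1 were 2 in set 1 and 13 in set 2, at 4 they were 1, at a −log10 p of 5 they were 2, and each set alone gave 0 to 4. Over peaks with a −log10 p of 3, the WT-over-KO median was 1.64 in set 1 and 2.15 in set 2, and the median over input 2.00 in WT set 1, 2.54 in WT set 2 and 3.10 in KO set 2, where few peaks are left. The median of member medians was 2.17 for WT over KO in set 2, and over input 0.30 in WT set 1 and 2.05 in WT set 2. Weighted by length, the WT set 2 median over input was 1.28, and without Ighm (chosen after seeing the data) 0.20 in WT set 1 and 1.39 in WT set 2. The mean KO median over input turned sign with the set, −0.65 in set 1 alone and 0.24 in set 2 alone; the cause was not tested. Means of the direct medians with each set alone ran from 0.24 to 1.20 in WT and −0.97 to −0.16 in KO, and of the WT medians over input from 0.75 to 0.92. At the peak's 5′ end, 14 peaks lay in 5′ UTRs, and 12 read as intron. With an overlap of 50% of both peaks, WT set 1 peaks matched 7 in KO set 1, 11 in WT set 2 and 12 in KO set 2. KO set 1 peaks matched 7 in WT set 1 and 8 in KO set 2, WT set 2 peaks 12 in WT set 1 and 25 in KO set 2, and KO set 2 peaks 12 in WT set 1, 8 in KO set 1 and 25 in WT set 2. With peaks extended by 25 nt, miR-29a-3p matched 5 peaks. Without Ebf1 (chosen after seeing the data), other B cell peaks were 3, 8, 34 and 4. The absence of counts limits every fold.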

Other observations

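Antibody genes beyond the members were looked up after the values were seen. Of 218 annotated variable-segment genes of the immunoglobulin loci, 8 had a listed peak in the WT library of set 2 (9 peaks) and 0 in each of the other 3 libraries. They were Ighv1-26, Ighv1-53 and Ighv5-17 of the heavy chain and 5 of the kappa chain, Igkv3-4, Igkv9-120, Igkv10-94 and Igkv10-96 among them. Their median WT-over-KO log2 folds ran from 1.71 to 2.69. Ighg2b, another IgG constant region, had 2 peaks there (1.71), and Ighe, the IgE constant region, 1 (4.88). None of the 144 variable and 8 constant genes of the T cell receptor loci annotated as such had a listed peak in any library. Variable segments are close in sequence to each other, so reads may be divided between them.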
